A study of Homo sapiens with 4 samples.

Results

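Chromatin accessibility of OPM-2 cells, an established line from a human myeloma, was compared between both ATAC-seq libraries of cells that received pomalidomide and both of cells that did not. The libraries without pomalidomide were from cells given DMSO, the vehicle, and from cells given 1 µM all-trans retinoic acid (ATRA). The libraries with it were from cells given 1 µM pomalidomide (POM) and from cells given 1 µM ATRA with 1 µM POM. Exposure was 72 h in all 4 groups, each group had 1 library, and the labels name no replicate culture. The overlapping peaks of the 4 lists on chromosomes 1 to 22 and X merged into 122632 regions. A region was kept where both POM libraries lay on the same side of both libraries without POM, either by being called or by rank, and 47416 regions (38.7%) met this rule. By this rule, 21709 of them counted as more accessible and 25707 as less accessible with POM. Both counts include regions called in 3 lists, 1758 and 4144. There the missing list was taken as lowest, and the other list of its side ranked below both lists of the opposite side. Of the 4144, 3384 were missing from the POM list alone, and an uncalled region is not shown to be closed. With 2 libraries a side, no exact two-sided permutation test can give a p below 0.333, so no test is reported and the spread between libraries of the same side stands in for replicate error.

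ATAC-seq marks open chromatin, because the Tn5 transposase inserts sequencing adapters where DNA is not covered by nucleosomes. Pomalidomide binds cereblon, the substrate receptor of a cullin-RING ubiquitin ligase, and redirects the ligase to zinc-finger transcription factors that include IKZF1 (Ikaros) and IKZF3 (Aiolos), on which myeloma cells depend. ATRA activates the nuclear receptors of the RAR and RXR families. Active promoters in CpG islands are rich in G and C and lie mostly in gene-dense chromosome domains, whereas the long genes of neuronal adhesion and guidance lie in gene-poor, AT-rich domains.

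Promoter sequences of single members are shown to let the classes be read as DNA. The 8 below are the 250 bases before the start site in the RefSeq promoter table (GRCh38.p14, the coordinates of hg38), 5′ to 3′ on the gene's own strand, with the GC box GGGCGG in capitals on either strand (CCGCCC is its reverse complement). They were chosen after the values were seen, as examples, and do not measure how often the box occurs in a class, which is given further on for all windows. Those of MKI67, the proliferation antigen Ki-67 (chr10:128126424-128126673, minus strand), FDX2, a ferredoxin of iron-sulfur cluster assembly (chr19:10316016-10316265, minus strand), and RPL4, a ribosomal protein (chr15:66504856-66505105, minus strand), lay in regions called in all 4 lists and ranked lower with POM. UBA3, the catalytic subunit of the enzyme that activates NEDD8 for the modification of cullins (chr3:69080366-69080615, minus strand), had a promoter region called only without POM.
MKI67: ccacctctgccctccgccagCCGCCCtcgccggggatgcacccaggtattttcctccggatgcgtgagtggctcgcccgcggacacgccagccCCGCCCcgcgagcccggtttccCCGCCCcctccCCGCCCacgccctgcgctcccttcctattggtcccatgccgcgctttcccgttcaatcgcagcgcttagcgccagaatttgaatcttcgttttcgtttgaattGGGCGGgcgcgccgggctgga
FDX2: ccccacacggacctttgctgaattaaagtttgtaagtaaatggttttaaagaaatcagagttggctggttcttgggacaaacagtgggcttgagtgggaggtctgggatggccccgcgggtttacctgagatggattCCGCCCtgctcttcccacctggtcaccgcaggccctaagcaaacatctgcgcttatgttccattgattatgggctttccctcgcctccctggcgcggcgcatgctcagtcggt
RPL4: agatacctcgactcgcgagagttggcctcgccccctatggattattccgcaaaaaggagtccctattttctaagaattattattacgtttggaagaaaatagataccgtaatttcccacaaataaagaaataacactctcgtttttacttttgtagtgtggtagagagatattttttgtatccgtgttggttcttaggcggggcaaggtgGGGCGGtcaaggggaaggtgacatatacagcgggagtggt
UBA3: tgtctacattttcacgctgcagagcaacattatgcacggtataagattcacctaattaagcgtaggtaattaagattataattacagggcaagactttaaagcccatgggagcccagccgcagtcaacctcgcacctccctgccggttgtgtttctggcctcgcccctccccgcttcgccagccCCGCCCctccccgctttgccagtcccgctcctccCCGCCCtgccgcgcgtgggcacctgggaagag
The promoters of INPP4B, a phosphoinositide phosphatase (chr4:142405860-142406109, minus strand), CD1A, which presents lipid antigens (chr1:158248086-158248335, plus strand), and OAS1, an interferon-induced sensor of double-stranded RNA (chr12:112906712-112906961, plus strand), were ranked higher with POM. RPE65, the retinoid isomerase of the visual cycle (chr1:68449955-68450204, minus strand), had a promoter region called only with POM.
INPP4B: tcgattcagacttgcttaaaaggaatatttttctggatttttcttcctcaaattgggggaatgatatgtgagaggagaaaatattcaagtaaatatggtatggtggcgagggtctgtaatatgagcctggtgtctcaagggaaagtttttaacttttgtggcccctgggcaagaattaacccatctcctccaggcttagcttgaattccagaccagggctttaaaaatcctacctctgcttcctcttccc
CD1A: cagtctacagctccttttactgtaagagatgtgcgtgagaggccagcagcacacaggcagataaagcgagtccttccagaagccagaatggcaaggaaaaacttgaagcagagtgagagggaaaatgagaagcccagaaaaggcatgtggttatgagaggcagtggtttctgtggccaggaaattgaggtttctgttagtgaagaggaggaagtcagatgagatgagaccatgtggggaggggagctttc
OAS1: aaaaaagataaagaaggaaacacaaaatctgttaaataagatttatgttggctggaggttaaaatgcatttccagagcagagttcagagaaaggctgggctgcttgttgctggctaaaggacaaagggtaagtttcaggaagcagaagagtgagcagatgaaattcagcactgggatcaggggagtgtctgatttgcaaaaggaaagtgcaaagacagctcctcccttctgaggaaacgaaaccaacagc
RPE65: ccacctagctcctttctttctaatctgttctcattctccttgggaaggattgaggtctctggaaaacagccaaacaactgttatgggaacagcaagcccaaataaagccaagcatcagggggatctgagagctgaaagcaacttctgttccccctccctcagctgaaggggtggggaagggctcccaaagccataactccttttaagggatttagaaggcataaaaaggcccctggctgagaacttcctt
The GC box was present 5 times in the MKI67 sequence, 2 times in UBA3 and 1 time each in FDX2 and RPL4, and in none of the 4 promoters of the other direction. GC content was 68.4% in MKI67, 58% in UBA3, 54% in FDX2 and 43.2% in RPL4, against 42% in INPP4B, 42.8% in OAS1, 48.8% in RPE65 and 49.2% in CD1A. RPL4 thus lay among the AT-rich promoters while ranked lower with POM.

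The values behind a region are the summit pileup, the number of fragments stacked at the highest point of the peak, and its rank. Pileups were recovered from the deposited fold and p-value and were not scaled between libraries. At the MKI67 promoter they were 126 in DMSO, 107 in ATRA, 16 in POM and 31 in ATRA+POM. Those of FDX2 were 112, 100, 10 and 20 in the same order, and those of RPL4 were 148, 118, 19 and 39. UBA3 had 120 in DMSO and 115 in ATRA and was called in neither POM library. INPP4B had 26 in DMSO, 21 in ATRA, 39 in POM and 110 in ATRA+POM. CD1A had 54, 35, 104 and 172. For both genes each POM library was above each library without POM even before depth was taken into account. OAS1 had 66, 48, 46 and 69, so that its raw pileups overlapped while its ranks were separated. After scaling for depth, its log2 ratio of pileup with against without POM was 0.82. RPE65 had 31 in POM and 72 in ATRA+POM and was not called elsewhere.

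Depth differed along the same line as the drug and cannot be told apart from it. Estimated depth relative to DMSO was 94.3% in ATRA, 62.9% in ATRA+POM and 33.7% in POM. The lists held 69162 to 85434 peaks, and 38.7% of the peaks in POM were narrower than 300 bp, against 10.1% to 13.2% in the other lists. Plasma cell marker genes had a peak at the promoter or within 1 kb of a gene boundary at 8 of 8 genes in every list. T and NK cell markers had one at 3 of 8 genes in every list, myeloid markers at 2 to 4 of 8, erythroid markers at 1 of 6, and epithelial and stromal markers at 3 of 8. Those with a peak in at least 1 list were CD2, CD8A, CD3E and CD3D, S100A8, S100A9, ITGAM and MPO, HBA1 and ALAS2, and COL1A1, COL1A2 and KRT18. The rest, among them CD14, LYZ, CSF1R, CD4, NKG7 and EPCAM, had none.

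Libraries of the same side resembled each other more than libraries of different sides. Over the 42930 regions called in all 4 lists, regions were ranked by −log10 q within each library and the rank was expressed as a percentile from 0 to 100. The median absolute difference in percentile was 5.10 points between DMSO and ATRA and 8.37 points between POM and ATRA+POM, the pairs that share a side. It was 11.6 to 12.4 points in the 4 pairs that cross sides. A difference of 20 points or more was found for 6.66% of regions between DMSO and ATRA, 17.4% between POM and ATRA+POM, and 29.2% to 31.4% across sides. The within-side figures also contain whatever ATRA did.

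In presence, 7417 regions were called in both POM lists and in neither other list, which is 6.05% of all merged regions (95% Wilson interval 5.92% to 6.18%, counting error only). The reverse class, called in DMSO and ATRA only, held 7736 regions or 6.31% (6.17% to 6.45%). Members of both classes were mostly weak peaks. The median pileup of the regions called only with POM was 9 in POM and 17 in ATRA+POM, and that of the regions called only without POM was 19 in DMSO and 19 in ATRA. The smallest called pileup was 8 in DMSO and ATRA, 4 in POM and 7 in ATRA+POM. After scaling for depth, 4248 regions called only with POM (57.3%) would have had at least 2 times the smallest called pileup in the lists that lacked them, and so would 3126 of those called only without POM (40.4%). These projections start from the side that placed the regions in the class, where pileups are high by choice. The smallest called pileup of a list is also not the limit at each region's own background. Whether depth kept regions from being called was not tested. Without peaks narrower than 300 bp, 3372 and 5314 regions remained in these classes. Among the 20000 strongest peaks of both lists of a side, 208 regions were called only with POM and 26 only without.

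In rank, both POM percentiles lay above both others at 12534 of the 42930 shared regions (29.2%) and below both at 13827 (32.2%), and at 16569 (38.6%) the sides were not separated. Ranks are relative, so regions that gain rank force others to lose it. A clear shift was set at a gap of 10 points or more between the nearest libraries of the 2 sides. It was met upwards by 5777 regions (13.5%) and downwards by 6067 regions (14.1%). The 50 regions just inside this limit had gaps of 10 to 10.1 points and a median log2 pileup ratio of 0.81, and the 50 just outside had gaps of 9.899 to 9.998 points and a ratio of 0.84. On the lower side the ratios were −0.67 just inside and −0.68 just outside. After scaling for depth, the median log2 ratio of pileup with against without POM was 1.195 for the regions ranked higher and −0.98 for those ranked lower.

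Of the 12 strongest regions called only with POM, 4 lay inside a gene, 5 lay outside but within 100 kb of one, and 3 had no protein-coding gene within that distance. The leading region was 37.0 kb outside RXRG, which encodes a retinoid X receptor (chr1:165482079-165482669), with a pileup of 112 in POM and 182 in ATRA+POM. These values put it at the 98.6th and 98.4th percentile of the respective lists, while neither DMSO nor ATRA had a peak there. A pair of regions flanked GOLIM4, a Golgi membrane protein gene. The region at chr3:168154845-168155788 had 101 in POM and 142 in ATRA+POM, and that at chr3:167941459-167942265 had 69 and 104. Near CDH8, a cadherin gene, a region 93.6 kb away (chr16:62130066-62131034) had 70 and 129. Inside gene bodies, the leading regions lay in PPP1R14D (58 and 88), an inhibitor of protein phosphatase 1, in SH3RF2 (64 and 105), in GSTCD (63 and 83) and in PITPNC1 (56 and 101), a phosphatidylinositol transfer protein. In all 12 leading regions, both POM libraries were in the top 10% of their own list, and these percentiles were what the regions were chosen by.

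The strongest regions called only without POM lay within or close to genes in dense neighbourhoods. The leading region lay in the TPTEP2-CSNK1E readthrough locus (chr22:38398266-38399357), where CSNK1E encodes casein kinase 1 epsilon, with a pileup of 191 in DMSO and 169 in ATRA. ANKRD11, a chromatin regulator gene, had a region 0.93 kb from a start site (chr16:89489080-89489631) with 237 and 199. The UBA3 promoter region described above was the third. NDOR1, a flavin-dependent oxidoreductase gene, had a promoter region (chr9:137205270-137206081) with 137 in DMSO and 121 in ATRA, and 58 protein-coding genes lay within 500 kb of it. Regions in ARHGEF11 (121 and 124) and CYP2S1 (93 and 65) and near LTO1 (95 and 71), LGALS2 (79 and 67), TH (114 and 87) and CCL25 (73 and 59) followed. Their percentiles in the DMSO and ATRA lists ran from 77.3 to 90.7 over the 12 leading regions, lower than those of the leaders called only with POM. Fewer than 9 genes lay within 500 kb of only 2 of them, UBA3 and LTO1.

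Among shared regions, the largest gaps upwards were at sites that were weakly called without POM. A region in UCK2, a uridine-cytidine kinase gene (chr1:165903436-165904178), had pileups of 17 in DMSO, 19 in ATRA, 61 in POM and 109 in ATRA+POM. Its percentiles were 4.10, 4.52, 88.8 and 87.7, so the sides were 83.1 points apart. In ROBO2, an axon guidance receptor gene (chr3:77467694-77468639), the pileups were 18, 11, 80 and 150, with a gap of 81.2 points. Near CD164, a sialomucin gene (chr6:109303859-109305077), they were 15, 13, 76 and 119. Near SOD3, the extracellular superoxide dismutase gene (chr4:24793431-24793964), they were 14, 9, 52 and 89, and in ADCY2, an adenylate cyclase gene, 11, 9, 39 and 75. PROX1, SMYD3, FGF2 and CDH2, genes of a homeobox factor, a methyltransferase, a growth factor and N-cadherin, were the nearest genes of other leaders. In all 12 leading regions the unscaled pileups of both POM libraries exceeded those of both others, although the POM libraries were the shallower ones. The regions were chosen for the gap between these same libraries, so this only describes them.

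Of the 12 regions with the largest gaps downwards, 6 lay on chromosome 19. The single largest, at chr17:26885376-26885957, had no protein-coding gene within 100 kb and pileups of 108 in DMSO, 114 in ATRA, 6 in POM and 13 in ATRA+POM. Near CIRBP, a cold-inducible RNA-binding protein gene (chr19:1266359-1267338), they were 281, 246, 26 and 43, with a gap of 68.4 points. ATG4D, an autophagy protease gene, had a region with 174, 103, 12 and 21, and a region 48.8 kb from CCNE1, the gene of cyclin E1, had 98, 89, 10 and 21. Promoters among the leaders were those of FDX2, RRP7A (93, 79, 9 and 17), a factor of ribosomal RNA processing, and PLP2 (141, 108, 24 and 38), a membrane proteolipid. In each of these regions both POM libraries lay below both others by more than libraries of the same side lay apart. That separation follows from choosing the regions by their gap and is no further support.

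**Figure D1:**
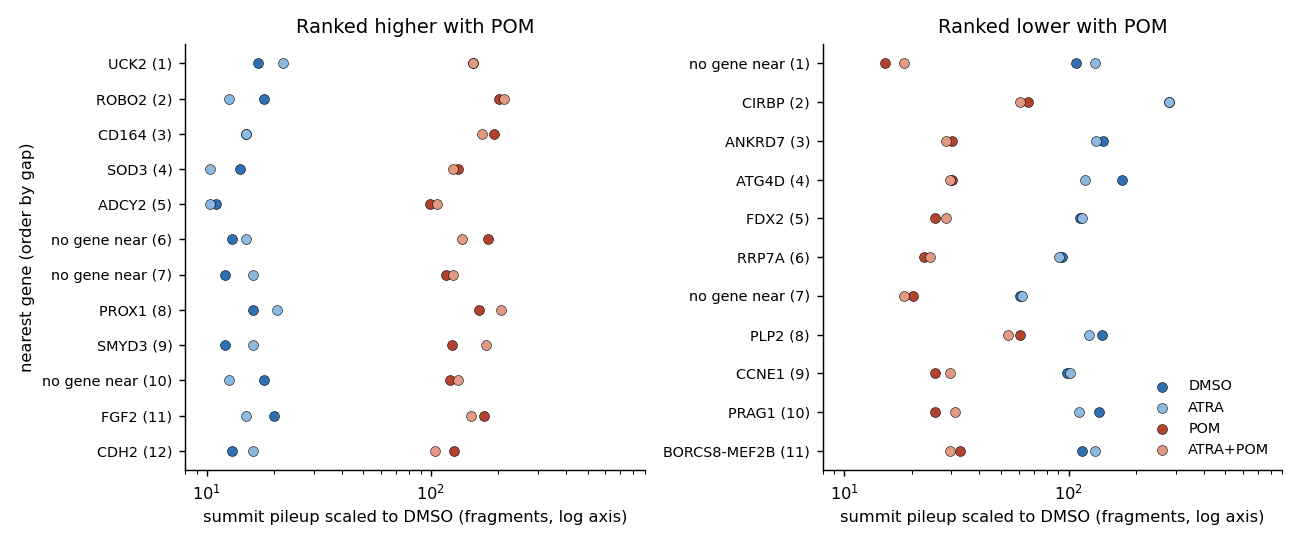
Summit pileup divided by each library's scale to DMSO (log axis) for the regions with the largest gaps, 12 ranked higher (left) and 11 of the 12 ranked lower (right), named by the nearest gene, one dot per library. In the left panel both POM libraries lie to the right of both others in every row, and in the right panel to the left, by more than the libraries of the same side lie apart. The regions were chosen for this gap, so the separation follows from the choice.

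Promoters took part unequally. Of the shared regions, 21.6% lay within 1 kb of a start site, against 31.3% (30.2% to 32.5%) of those ranked lower and 3.81% (3.34% to 4.35%) of those ranked higher with POM. The contrast was smaller when regions were ranked by deposited fold, 23.9% of those lower against 10.8% of those higher. Of all merged regions 9.22% did, against 4.27% of those called only without POM and 1.25% of those called only with it. Besides INPP4B and CD1A, the promoters with the largest gaps upwards were those of CCDC198 (18, 10, 30 and 43 in DMSO, ATRA, POM and ATRA+POM), TCN1, a vitamin B12 binding protein gene (16, 13, 24 and 64), BCO1, the enzyme that cleaves beta-carotene (21, 14, 27 and 64), SORBS2, ARID5B and KIF6. At ARID5B the raw pileups of 82, 75, 60 and 99 overlapped between sides. Besides MKI67, FDX2, RRP7A and PLP2, those with the largest gaps downwards were RNF10 (176, 152, 21 and 33), a ubiquitin ligase, CPTP (163, 137, 17 and 29), a ceramide-1-phosphate transfer protein, PGAP6 (102, 87, 12 and 16) and POLR2J2, whose near-identical copies make its value uncertain. Promoters called only with POM included those of CASP5 (26 in POM, 36 in ATRA+POM), an inflammatory caspase, ALK (33 and 36), DEPP1 (31 and 64), SLC4A4, TP63, CYSLTR1 and HSPB8. Those called only without POM included ERRFI1 (52 in DMSO, 46 in ATRA), a feedback inhibitor of EGFR, MC3R (54 and 56), HOOK2 (90 and 74), ZNF124, GGT7 and ARMC7.

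Base composition of promoter windows, from 250 bases before to 50 after the start, moved with the classes. Median GC content was 47.8% in the 52 windows called only with POM and 56.0% in the 202 ranked higher, against 66.0% in the 11372 windows of regions in all 4 lists. It was 68.0% in the 2325 windows ranked lower and 64.7% in the 185 called only without POM. Ranked by fold, the medians were 64.3% in 636 windows ranked higher and 67% in 1399 ranked lower. The median ratio of observed to expected CpG was 0.21 in the windows called only with POM and 0.87 in those ranked lower. The GC box GGGCGG, a site of the SP and KLF families, was in 56.3% of all 22132 windows, in 72.9% of the windows of shared regions and in 74.3% of those ranked lower. It was in 44.1% of those ranked higher (37.4% to 51.0%) and in 11.5% of those called only with POM (5.40% to 22.97%). In the windows called only without POM its share was 61.1% (53.9% to 67.8%), below that of the shared windows. The ETS-type sequence CCGGAAG was in 24.6% of the windows ranked lower, 20.6% of the shared and 6.44% of those ranked higher. Of the windows called only without POM 8.11% had it, also below the shared ones. The CCAAT sequence was in 26.1% of those ranked lower, 31.7% of those ranked higher and 36.3% of the shared. CAGCTG, an E-box, was in 20 of the 52 windows called only with POM (38.5%), against 18.04% of all windows. TATAAA was in 9 of the 52 (17.3%), against 9.46% of all windows. The AP-1 site TGAGTCA, whose reverse complement is TGACTCA, was in 2.50% of the windows ranked lower, 2.97% of those ranked higher and 2.44% of the shared. The core TGGGAA, which Ikaros proteins bind, was in 20.2% of the windows ranked lower, 24.8% of those ranked higher, 21.1% of the shared and 22.7% of all. The nuclear receptor half-site AGGTCA was in 10.3%, 9.41%, 9.04% and 11.9% in the same order. The cyclic AMP response element TGACGTCA was in 3.70%, 1.98%, 3.38% and 2.26%, so the windows ranked lower were near the shared ones. All were searched on both strands, and a match is a string of letters, not a bound site.

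Gene density went along with the shift within every quintile of GC content, and GC content did so less evenly within tertiles of gene density. Promoter regions were split by quintile of GC content and by tertile of the number of protein-coding genes within 500 kb. In the quintile with the highest GC content (74% or more), 14.1% of promoter regions were ranked lower in the tertile with 0 to 8 genes nearby and 47.4% in the tertile with 18 or more. In the quintile with the lowest GC content (57% or less), the corresponding shares were 8.04% and 23.5%. Over the 5 GC quintiles of the middle tertile, 9 to 17 genes, the shares ranked lower were 20.2%, 18.1%, 16.3%, 20.9% and 26.5%, so they did not increase steadily with GC content. Nor did those of the gene-poor tertile, which were 8.04%, 6.84%, 11.2%, 10.1% and 14.1%. In the gene-rich tertile, 18 or more genes, they did increase steadily, at 23.5%, 26.2%, 30.35%, 34.6% and 47.4%. Promoters ranked higher were most frequent, at 11.1%, where GC content and gene number were both low, and none of the 475 promoters at the opposite corner was ranked higher. Their part in the difference between sides was not tested.

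**Figure D2:**
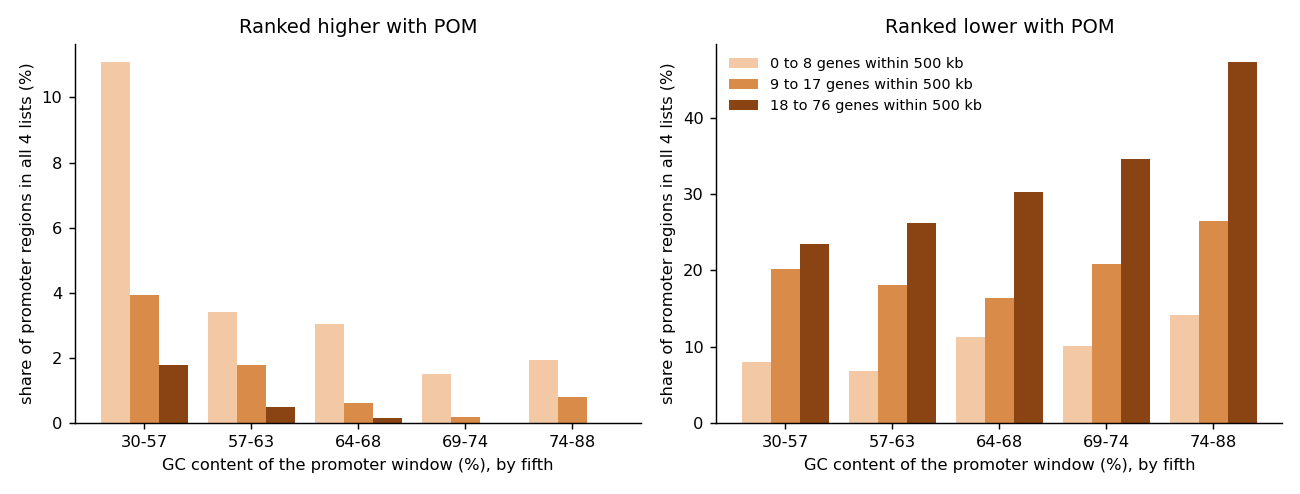
Share of promoter regions in all 4 lists (vertical axis, %) that were ranked higher (left) or lower (right) with POM by 10 points or more, by quintile of promoter GC content (horizontal axis) and tertile of gene number within 500 kb (colours). The share ranked lower climbs to 47.4% at high GC content and high gene number, and the share ranked higher climbs to 11.1% at the opposite corner.

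Gene density separated the classes over the whole genome. The median number of protein-coding genes within 500 kb was 3 for regions called only with POM and 10 for those called only without, against 6 for all merged regions. It was 4 for shared regions ranked higher and 13 for those ranked lower, against 7 for all shared regions. From the quintile with 0 to 2 genes nearby to the quintile with 15 or more, the share called only with POM went from 10.7% to 1.96% and the share called only without from 2.32% to 11.6%. Over the same range the share ranked higher went from 25.8% to 4.58% and the share ranked lower from 3.92% to 29.0%. In the gene-poorest quintile the median percentile was 8.09 points higher in POM than in DMSO and 8.87 points higher in ATRA+POM than in ATRA. In the gene-richest quintile the same differences were −7.77 and −8.92 points. The same-side differences stayed within 2.10 points of 0 in every quintile by this ranking, so in the end quintiles the shift between sides was larger than the spread within them. Distal regions, over 1 kb from a gene boundary, had the same order, from 26.5% ranked higher in the gene-poorest quintile to 7.17% in the gene-richest.

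**Figure D3:**
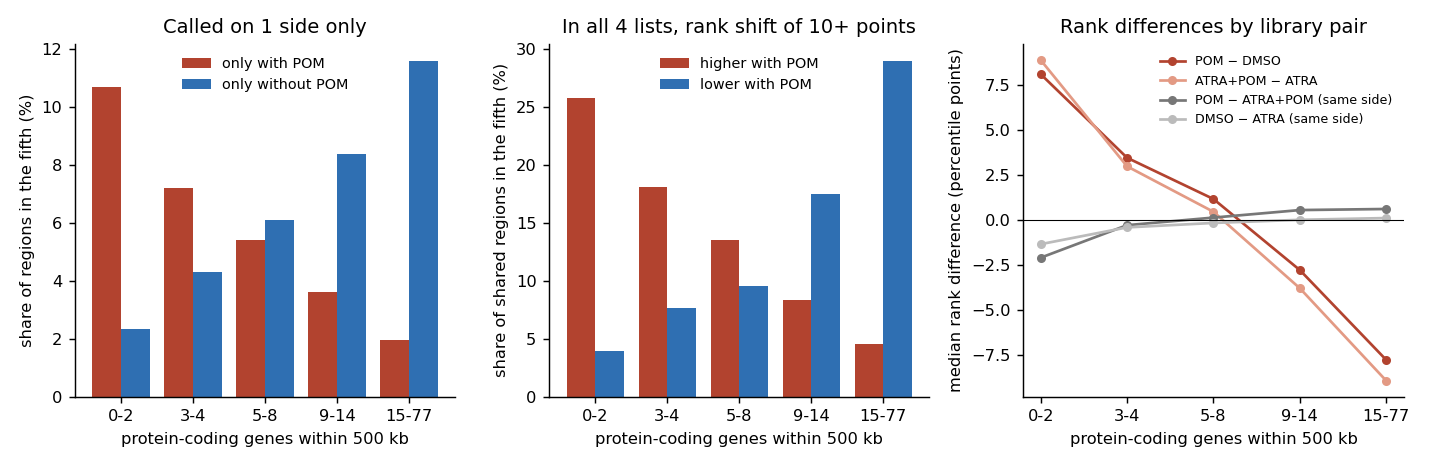
Shares of regions called on 1 side only (left, % of all regions), shares of regions in all 4 lists with a rank shift of 10 points or more (centre, %) and median rank differences between libraries (right, percentile points), by quintile of protein-coding genes within 500 kb. Bars for POM shrink from 10.7% to 1.96% (left) while those for the other side grow, and the 2 grey lines, which compare libraries of the same side, stay near 0.

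The density gradient depended on the measure. Ranked by deposited fold, which divides the pileup by the caller's local background, the regions ranked higher had a median of 6 genes within 500 kb and those ranked lower a median of 9. By fold, POM minus DMSO was 1.80 points in the gene-poorest quintile and −0.39 in the gene-richest, and ATRA+POM minus ATRA was 3.31 and −3.26. The same-side differences by fold were −2.15 and 1.202 for POM minus ATRA+POM and −0.35 and −1.35 for DMSO minus ATRA. By fold, POM minus DMSO was thus no larger than the spread within sides in either end quintile. Ranked by pileup, the medians were 4 and 14 genes, and the differences were 8.73 and −8.71 for POM and 10.7 and −10.1 for ATRA+POM. Of the 5777 regions ranked higher by −log10 q, 3754 (65.0%) also passed the limit of 10 points by fold and 5194 (89.9%) by pileup. Of the 6067 ranked lower, 3487 (57.5%) passed by fold and 5289 (87.2%) by pileup. All 24 leading regions and all 16 leading promoters named above for rank passed by both measures. They were chosen for the largest gaps, and all 3 measures come from the same peaks.

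Chromosomes 22, 19 and 17 stood at the low end and chromosomes 4 and X at the high end. On chromosome 22, 15.8% of all regions were called only without POM and 1.08% only with it, and 42.0% of shared regions were ranked lower. The median difference there was −14.1 points for POM minus DMSO and −14.9 for ATRA+POM minus ATRA. On chromosome 19, the most gene-dense, 15.4% of regions were called only without POM and 39.5% of shared regions were ranked lower, with differences of −13.6 and −12.9 points. Chromosome 17 had 33.2% ranked lower and differences of −9.89 and −11.5. On chromosome 4, 8.48% of regions were called only with POM and 22.8% of shared regions were ranked higher, with differences of 5.94 and 5.76 points. The X chromosome had the largest share called only with POM, 8.92%. Over the 23 chromosomes, Spearman's rho with genes per Mb was −0.76 for the share called only with POM and 0.75 for the share called only without, a description of chromosomes that share the same 4 libraries. The same-side differences had a rho of 0.63 and 0.69 with genes per Mb, but at most 1.68 points in size. By fold, the differences were −4.42 and −5.68 points on chromosome 22, −2.98 and −4.20 on chromosome 19, and 2.99 and 1.53 on chromosome 4. Chromosome 21 departed from the order, with 5.75 genes per Mb and 23.5% of shared regions ranked lower. So did chromosome 18, which had the fewest genes per Mb (3.37). Its differences were 0.08 and 0.51 points, and −1.23 and −1.38 by fold, with 13.8% of shared regions ranked higher and 10.4% lower.

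**Figure D4:**
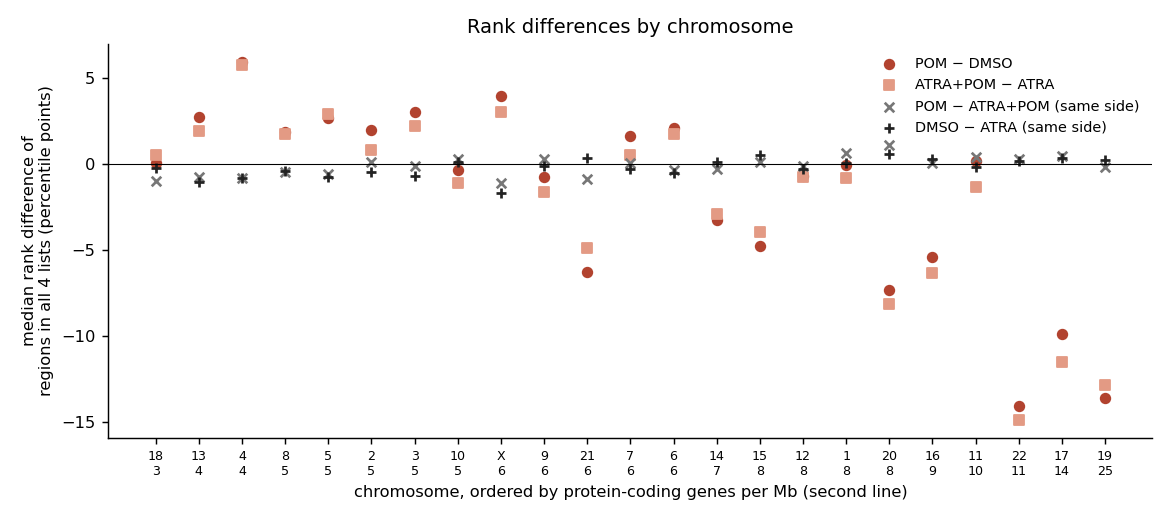
Median difference in rank percentile (vertical axis, points) over the regions in all 4 lists, per chromosome, ordered by protein-coding genes per Mb. Red circles and squares compare libraries across sides and reach −14.1 and −14.9 points on chromosome 22, while crosses and plus signs, which compare libraries of the same side, lie within 1.68 points of 0.

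The shifts were regional. Of the 2589 windows of 1 Mb with at least 20 regions, the one with the largest excess of regions called only with POM was on chromosome 9 (8000001 to 9000000), which overlaps PTPRD, a receptor phosphatase gene, and there 9 of 22 regions were called only with POM and 0 only without. The others held ZNF804B on chromosome 7 (9 of 23), IL1RAPL1 on the X chromosome (7 of 21), HGF and CACNA2D1 on chromosome 7 (7 of 23), and no protein-coding gene on chromosome 13 (7 of 23). The 2 shared regions of the PTPRD window went the other way in rank, by −21.5 points for POM minus DMSO and −7.65 for ATRA+POM minus ATRA. Both differences were positive in the other windows of this direction. On the other side, a window within KAZN on chromosome 1 had 6 of 20 regions called only without POM and 0 only with it. Windows on chromosome 17 that include YWHAE and CRK (12 of 41) and PITPNM3 (10 of 36), on chromosome 22 around ADA2 and BID (15 of 57) and at the start of chromosome 1 around SAMD11 and HES4 (8 of 31) followed. In rank, the 4 shared regions of the KAZN window went the other way, by 7.09 and 5.49 points. The chromosome 22 window had −4.74 and 0.96 points, and both differences were negative in the rest. The longest run of regions called only with POM that no region of the opposite class interrupted spanned 14.5 Mb of chromosome 4 and held 55 regions, with EPHA5 and a cluster of UGT2B genes among their neighbours. The longest runs of the opposite class held 79 regions over 9.86 Mb of chromosome 22 and 71 over 4.74 Mb of chromosome 19. Among neighbouring shared regions 10 to 50 kb apart that both had a clear shift, 1366 of 1684 pairs (81.1%) shifted the same way. Pearson's r between neighbours at that distance was 0.25 for the difference between sides, against 0.04 and 0.05 for the same-side differences. The share of such pairs was 73.6% within 10 kb, 78.9% at 50 to 200 kb and 86.1% at 200 to 1000 kb. There r was 0.20, 0.23 and 0.22, so agreement did not fall steadily with distance.

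By gene, the bodies and 10 kb flanks of NELL1, DLG2 and CNTNAP2 each held 12 regions called only with POM, the most of any gene, among 44, 117 and 102 regions in all. They held 1, 4 and 3 called only without POM. These genes are 906136, 2173362 and 2304198 bp long, and counts were not divided by gene length or by the number of regions. Over all regions 6.05% were called only with POM, and 10.7% in the gene-poorest quintile. DLG2 encodes a synaptic scaffold and CNTNAP2 a neurexin-like adhesion protein. ZNF385D, NCKAP5, NRG1 and PTPRD followed with 10 each and CDH18 with 9. The most regions called only without POM were in GSE1, which encodes a subunit of a histone deacetylase complex, and in PTPRN2, with 14 each. They held 68 and 78 regions in all. Over all regions 6.31% were called only without POM, and 11.6% in the gene-richest quintile. PRDM16, a zinc-finger regulator, had 12 and 0 of the opposite class, RBFOX3 had 11, SHANK2 10, CFAP46 9, and CDH13 and KAZN 8 each. Of the 17918 genes with any region, 2383 had a region called only with POM, 4963 had one called only without, and 796 had both. Whether this overlap departs from that of unrelated classes was not tested.

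The cereblon ligase and its substrates had shares near or below those of all regions. Of 80 regions at 16 genes, 4 were called only with POM and 6 only without, and of 40 shared regions 3 were ranked higher and 5 lower, shares of 7.50% and 12.5% against the 13.5% and 14.1% over all shared regions. None of these 8 passed the limit of 10 points by fold. A gap of 0 by fold, here and below, means that the sides were not separated. At the promoter of CRBN, which encodes cereblon, pileups were 162 in DMSO, 148 in ATRA, 84 in POM and 170 in ATRA+POM, and both POM ranks lay above the others by 6.04 points. At the promoter of CUL4A, the ligase's cullin scaffold, they were 158, 144, 33 and 51, and the gap was −22.8 points by −log10 q and −0.40 by fold. At that of DDB1, its adaptor, they were 179, 139, 41 and 69 with a gap of −12.6 points, which was −8.44 by pileup and −0.22 by fold. IKZF1 had one region at its start that was ranked higher (117, 86, 76 and 116), with a gap of 34.1 points that was 4.22 by fold, while its strongest promoter region had a gap of −3.49 points (227, 227, 55 and 131). IKZF3 had 1 region called only with POM (21 and 55) and 2 called only without, the stronger of them with 58 in DMSO and 53 in ATRA.

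Retinoid receptor and metabolism genes had 5 of 115 regions called only with POM and 8 only without, and 4 each of 47 shared regions ranked higher and lower. These shares, 4.35% and 6.96% in presence and 8.51% each in rank, lay near or below the 6.05%, 6.31%, 13.5% and 14.1% over all regions. Of the 5 called only with POM, 4 lay inside RARB, the gene of retinoic acid receptor beta, with pileups of 7 to 15 in POM and 13 to 19 in ATRA+POM. A further region of that gene at chr3:25217817-25219000 had 11 in DMSO, 13 in ATRA, 18 in POM and 52 in ATRA+POM, with a gap of 38.7 points. The RARB region at its first start site went the other way, with 85, 74, 22 and 44 and a gap of −17.1 points. All 3 RARB shifts passed by fold. At the promoter of RXRA, which encodes the common heterodimer partner, pileups were 70, 58, 15 and 22 and the gap was −30.2 points.

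Plasma cell genes had 2 of 93 regions called only with POM and 8 only without, and 3 of 40 shared regions ranked higher and 9 lower (22.5%), of which 1 also passed by fold. These 4 shares were 2.15%, 8.60%, 7.50% and 22.5%, against 6.05%, 6.31%, 13.5% and 14.1% over all regions. In IRF4, the transcription factor on which myeloma cells depend, the promoter ranks differed by −2.28 points (371, 303, 94 and 149). Inside that gene a region at chr6:398557-400341 had 186, 162, 34 and 70, with a gap of −27.8 points that was 0 by fold, and 2 regions were called only without POM (97 and 86, 78 and 73). The XBP1 promoter had 263, 242, 50 and 79 and a gap of −12.7 points that was 0 by fold. GPRC5D, a plasma cell surface receptor gene, had its promoter ranked higher, with 105, 54, 59 and 101 and a gap of 14.9 points that was 26.0 by fold. B cell genes had 7 of 96 regions called only with POM and 3 only without, and 10 of 50 shared regions ranked higher (20%) and 11 lower (22%). BACH2, a repressor that opposes plasma cell differentiation, held 7 of those 10, spread over its body. They included chr6:90175853-90176967, with pileups of 16 in DMSO, 14 in ATRA, 22 in POM and 43 in ATRA+POM and a gap of 36.9 points. At chr6:90103098-90103820 the values were 36, 18, 40 and 63, with a gap of 36.2 points. Another shifted region of BACH2 was ranked lower. EBF1, a factor of early B cells, had 4 regions called only with POM, all weak (6 to 10 in POM), and 1 ranked higher with 24, 21, 32 and 47 and a gap of 39.8 points. Near its start another EBF1 region was ranked lower, with 83, 56, 22 and 33.

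Genes linked to the t(4;14) translocation and to MAPK feedback had 3 of 119 regions called only with POM, 8 only without, and 2 of 50 shared regions ranked higher and 14 lower (28%), 4 of which also passed by fold. These 4 shares were 2.52%, 6.72%, 4% and 28%, against 6.05%, 6.31%, 13.5% and 14.1% over all regions. NSD2, the histone methyltransferase that this translocation activates, held 3 regions called only without POM, with 42 to 67 in DMSO and ATRA, and 3 ranked lower. At its promoter pileups were 153 in DMSO, 107 in ATRA, 19 in POM and 41 in ATRA+POM, a gap of −27.1 points that was −20.3 by fold. Promoters of the feedback inhibitors DUSP6 (294, 249, 119 and 217) and SPRY2 (234, 173, 111 and 238) had small gaps upwards of 7.87 and 7.04 points. Cell cycle genes had no shared region ranked higher and 7 of 59 ranked lower (11.9%), near the background. The MKI67 promoter had the largest gap, followed by a region beside AURKB, the gene of the mitotic kinase Aurora B (169, 127, 18 and 32), at −40.5 points, −27.3 by fold. Regions of CDKN2A, E2F2 and CDK6 had gaps of −19.4, −15.3 and −13.4 points, none of which passed by fold. The promoter of PLK1, another mitotic kinase, had 218, 191, 36 and 78 and a gap of −12.2 points, −5.69 by fold. The promoter of E2F2 was called only without POM, with 146 in DMSO and 112 in ATRA, whereas those of CDK4 (gap of 1.31 points) and CCNB1 (0.65) kept nearly the same rank.

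Genes of the unfolded protein response, which sustains antibody secretion, had 0 of 104 regions called only with POM and 10 only without (9.62%). Over all regions these shares were 6.05% and 6.31%. Of those 10, 5 lay at ATF6, a membrane-bound stress sensor, with 9 to 48 fragments in DMSO and ATRA, and 3 at ERN1, which encodes the sensor IRE1. Of 52 shared regions 2 were ranked higher and 8 lower (15.4%, against 14.1% over all shared regions). Of the 8, 3 also passed by fold, and neither of the 2 ranked higher passed by pileup. Of shared regions within 1 kb of a start site 20.9% were ranked lower, and of those in the gene-richest quintile 29.0%. Ribosomal protein genes had no region ranked higher and 23 of 80 ranked lower (28.8%, near that quintile), of which 12 also passed by fold. Besides RPL4, these included the promoters of RPL3 (258, 209, 38 and 66; gap of −23.8 points, 0 by fold), RPL32 (171, 164, 27 and 59; −22.1, and −32.8 by fold) and RPS15 (220, 168, 28 and 53; −22, and −13.7 by fold). Others such as RPL15, RPL24 and RPL34 had gaps upwards of 0.06 to 3.77 points. Proteasome genes had 2 of 48 ranked higher and 9 lower (18.8%), 5 of the latter also by fold. The largest gap downwards was in a region that spans an end of PSMB7 (chr9:124415050-124415831), a gene without a promoter window here. Its pileups were 148, 104, 23 and 35 and its gap was −31.7 points, −22.8 by fold. The promoter of PSMC2 followed (160, 136, 29 and 60), with a gap of −29.0 points, −8.09 by fold. These genes encode a core and a regulatory subunit.

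Chromatin regulator genes had 8 of 285 regions called only with POM and 29 only without (10.2%), and 5 of 120 shared regions ranked higher and 35 lower (29.2%), of which 14 also passed by fold and 33 by pileup. Of these, GSE1 alone gave 14 of the 29 and 10 of the 35, and none of its 10 passed by fold. Over all regions 6.05% were called only with POM and 6.31% only without. Of all shared regions 13.5% were ranked higher and 14.1% lower, and in the gene-richest quintile 29.0% were ranked lower. The promoter of ARID1A, a subunit of the SWI/SNF remodelling complex, had 333 in DMSO, 246 in ATRA, 38 in POM and 79 in ATRA+POM, a gap of −37.4 points that was −11.7 by fold. Inside ARID1A another region was ranked higher (54, 48, 46 and 67; gap of 31.8 points). Promoters of KMT2A (322, 272, 51 and 100), CREBBP (166, 111, 27 and 23) and SUZ12 (158, 115, 28 and 19) had gaps of −22.1, −26.5 and −18.5 points, and all 3 passed by fold. A promoter region of CHD4, a nucleosome remodeller, was called only without POM, with 80 in DMSO and 69 in ATRA. HDAC9 went against its list, with 4 regions called only with POM and 2 ranked higher. The HOX clusters, 39 homeobox genes, had 1 of 63 regions called only with POM and 11 only without (17.5%), and 6 of 20 shared regions ranked lower, 3 of them also by fold.

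The 46 synaptic adhesion and guidance genes had the largest shares of any list in the direction of POM. Of 1457 regions, 163 were called only with POM (11.2%) and 32 only without (2.20%), and of 344 shared regions 89 were ranked higher (25.9%) and 10 lower (2.91%). By fold 54 of the 89 and all 10 also passed, and by pileup 82 and 6. ROBO2 had 9 called only with POM and 4 of 10 shared regions ranked higher. LRP1B, an endocytic receptor gene, had 8 called only with POM. CSMD1 had 7 of 31 shared regions ranked higher, and NLGN1, which encodes neuroligin 1, had 5 of 13. The median difference over the 344 regions was 8.72 points for POM minus DMSO and 9.90 for ATRA+POM minus ATRA, near the 8.09 and 8.87 points of all regions in the gene-poorest quintile. These genes are long and lie in gene-poor domains, so their share and that quintile describe overlapping parts of the genome.

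Interferon-stimulated genes had 0 of 67 regions called only with POM and 2 only without, and 3 of 41 shared regions ranked higher (7.32%) and 8 lower (19.5%). The first 3 of these shares lay below those over all regions, 6.05%, 6.31% and 13.5%, and the last above 14.1%. Of the 8 ranked lower, 6 also passed by fold. The OAS1 and RIGI promoters were ranked higher by 18.1 and 10.4 points, the latter 0 by fold (97, 97, 69 and 154), while that of MX1 was ranked lower (41, 46, 10 and 20; gap of −17.9 points). Within OAS1 and its flanks another region was ranked lower. AP-1 genes had 13 of 38 shared regions ranked lower (34.2%), 3 of them also by fold. The promoter of MAFG, a small MAF factor, had 277, 235, 41 and 87 and a gap of −20.9 points that was −8.20 by fold. Across an end of MAFG, a region at chr17:81917218-81918703 had 149, 106, 10 and 23 and a gap of −54.2 points, −39.4 by fold. Another region of MAFG, 0.56 kb from its start, was ranked higher by 10.97 points and lower by 1.59 points when ranked by pileup. At JUN, an AP-1 subunit, the values were 415, 413, 199 and 582, with a gap upwards of 4.76. NF-κB genes had 1 of 41 ranked higher and 5 lower (12.2%), and BCL2 family genes 4 of 42 higher and 8 lower, with 9 of 76 regions called only without POM (11.8%). The BID promoter had 71, 70, 13 and 13 and a gap of −33.0 points that was −19.4 by fold. SP and KLF factor genes had 5 of 39 ranked higher and 9 lower (23.1%), among the latter the KLF4 promoter (190, 131, 33 and 60; −20.4, and −30.0 by fold). Over all lists but the synaptic one, 220 different regions had a clear shift, of which 102 also passed by fold and 177 by pileup.

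**Figure D5:**
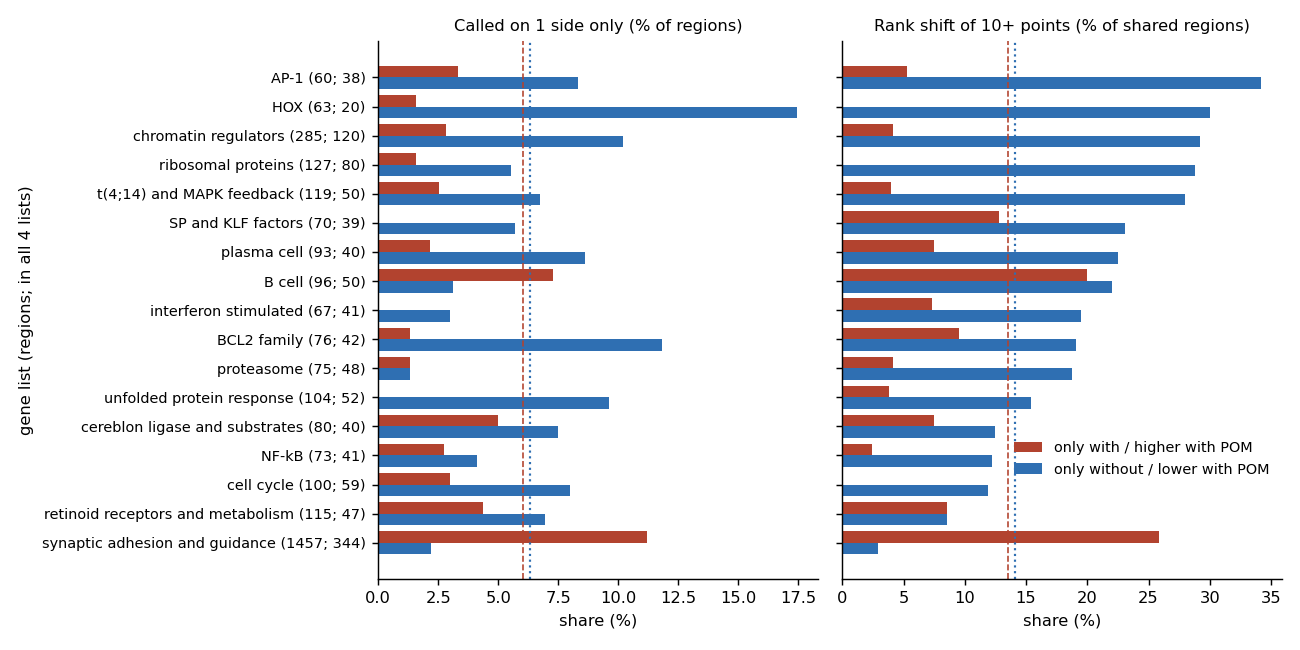
Share of each list's regions called on 1 side only (left) and share of its shared regions with a rank shift of 10 points or more (right), with the number of regions and of shared regions in brackets. Dashed red and dotted blue lines mark the shares over all regions, 6.05% and 6.31% (left) and 13.5% and 14.1% (right). The synaptic adhesion and guidance list (11.2% and 25.9%) and the B cell list (7.29% and 20%) exceed the red lines in both panels.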

How the data were processed

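The 4 OPM-2 libraries, 1 per treatment, were grouped by their treatment labels. Tn5 tagged the nuclei before sequencing, per the labels' protocols. The build is hg38, as the submitters' processing notes name it. Each library has its own peak list. The name of an aligner or caller, or a Tn5 shift, is not given in the sources used here. In the deposited lists, column 5 is a score, column 7 a fold, column 8 a −log10 p-value and column 9 a −log10 q-value, read from their layout and ranges. The deposited column 10, the summit offset, is a distance in bases. The authors recorded no scaling between libraries in these sources.

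Intervals on chromosomes 1 to 22 and X that overlapped by 1 bp were merged (5 peaks on other sequences were left out), each region took its highest column 9 value per list, and ranks were percentiles among regions in all 4 lists, with ties averaged. Summit pileup and local background were solved from fold and p-value under a Poisson tail, an assumption about the caller, and the pileup gave the deposited p-value within 0.01 for 100% of peaks. Depth was estimated as the most frequent background divided by the smallest peak width, relative to DMSO. Pileups were scaled by the median ratio to DMSO over shared regions. Genes (19974 protein-coding) and promoter windows (22132, with none on chromosome 8, so that start-site shares leave it out) are from RefSeq. Named regions are the 12 per class led by the smaller within-list percentile or the gap, with all peaks at least 300 bp wide, and named promoters and genes are the 8 that lead each class. Regions of listed genes lie in the gene body or within 10 kb, and listed genes with no region in a class (such as JUN, DUSP6 and CDK4) were named after their values were seen. A few items are not reported here. The members and lists were chosen with earlier results of these data known. Scripts ran on Python 3.11.15 with numpy 2.4.6, pandas 2.3.3 and scipy 1.17.1 and were tested on simulated data.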

Additional observations from a re-analysis of the deposited data

Results flagged for a closer look

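Ranked by −log10 q, chromosome 11 was the only one of 23 chromosomes, 17 gene lists and 5 quintiles of gene density on which the POM difference had opposite signs without and with ATRA. The median rank difference over its 2502 shared regions was 0.16 percentile points for POM minus DMSO and −1.36 points for ATRA+POM minus ATRA. Ranked by pileup the signs were the same, −0.096 and −1.41 points, and 0 of 23 chromosomes had opposite signs. Ranked by fold they were opposite on 7 of 23 chromosomes, among them chromosome 11 with 1.40 and −1.02 points. The difference between the 2 values was not tested.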

How the results depend on the processing

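The median number of genes within 500 kb kept its order in every setting tried, with the regions called only with POM or ranked higher always at the lower value. For regions called only with and only without POM the medians were 1 and 5 genes within 250 kb, 7 and 20 within 1000 kb, and for the latter class 9.5 over distal regions and 16.5 among the 20000 strongest peaks. For regions ranked higher and lower they were 2 and 7 within 250 kb, 8 and 26 within 1000 kb, 6 and 9 by fold, 3 and 18 with a limit of 1.5-fold in scaled pileup (chosen after seeing the data), 11 for the lower class over distal regions and 15 where all 4 pileups were 15 or more. Counts called only with POM moved to 3372 without peaks under 300 bp, and both counts to 208 and 26 among the 20000 strongest. Clear shifts numbered 12534 and 13827 at any gap and 2764 and 2497 at 20 points. Leaving out each library in turn gave 9301 to 23356 regions only with POM, 9717 to 17662 only without, 8120 to 10134 ranked higher and 8536 to 11262 ranked lower, since fewer lists must agree. Omitting POM moved 3 of these counts by over 1.5 times (23356, 10134 and 11262), omitting ATRA+POM all 4 (16206, 16295, 9478 and 10069), and omitting DMSO or ATRA the count only without POM (17662 and 16976). Median gene numbers were then 3 to 3, 8 to 10, 4 to 5 and 11 to 12. Truncated lists, a −log10 q of at least 5, absence of summits within 250 bp and an overlap of 100 bp left both presence counts within 1.5 times. No paired analysis was possible because each group has 1 library and no replicate number, and the differences matched on ATRA are given without a test. The depth of POM, 33.7% of DMSO, limits the detection of weak regions there, and an uncalled region is not shown to be closed.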
